A study of Rattus norvegicus with 10 samples.

Results

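Fos, Jun, Junb, Egr1, Atf3, Nr4a1 and Btg2 are immediate early genes, read here by the 16 probe sets that the platform annotation assigns to 1 of these symbols alone, out of 8799 probe sets on the array (6 of 4736 genes with a probe set of their own). Fos has 3 of them, Jun 4, Junb 2, Egr1 4, Atf3 1 and Nr4a1 2. Btg2 was not matched to a probe set by the annotation and was not analysed here, which leaves 6 of the 7 genes. The cells were microglia, the resident macrophages of the brain, grown from neonatal rat brain (1 brain per flask) in medium with 15% fetal calf serum and plated on day 15 at 100000 cells per dish. In the IFN-gamma cultures the fresh medium held 100 U/ml of interferon gamma, a cytokine that T cells release, and RNA was taken after 16 hours (3 cultures, with culture 1 hybridised on 3 technical arrays, 1a, 1b and 1c). Control cultures received fresh medium alone (5 cultures, numbered 1, 2, 3, 5 and 6), with no time given. Both groups thus shared the change to fresh medium, and the strain and sex of the rats are not given. Since no label says that the cultures came from separate brains, p-values measure only the spread between these samples, which may be technical.

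Immediate early genes are transcribed within minutes of a stimulus such as serum, a growth factor or a stress, without new protein synthesis, and their short-lived mRNAs usually fade within hours. Mitogen-activated protein (MAP) kinases switch them on through serum response factor (SRF), which binds the CArG box, and through CREB, which binds the cAMP response element (CRE). Interferon gamma signals mainly by another route, which starts with JAK kinases at its receptor, and many of its target genes carry gamma-activated sites (GAS). Fos, Jun, Junb and Atf3 encode proteins with a basic leucine zipper (bZIP), of which Fos and Jun family proteins pair as the AP-1 factor. Egr1 encodes a zinc finger factor and Nr4a1 an orphan nuclear receptor.

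The promoters of 4 genes are shown to set the regulatory letters of 3 immediate early genes beside those of Irf1, a transcription factor gene that interferon gamma is known to induce and that serves below as the check of the response. Each window runs from 250 bases before to 50 bases after the annotated start in RefSeq, build GRCr8, read 5' to 3' in the direction of the gene. The windows of Irf1, Junb and Egr1 lie at the first base of the annotated gene, and that of Nr4a1 lies at a start inside the annotated gene, downstream of its first base. Capitals mark every match, on either strand, to the letters TGACGTCA (CRE), TGACG (the CRE core, which also lies inside the full CRE), TGANTCA (AP-1 site), TTCNNNGAA (GAS) and the CArG box.
Irf1, chr10:38417685-38417984, plus strand: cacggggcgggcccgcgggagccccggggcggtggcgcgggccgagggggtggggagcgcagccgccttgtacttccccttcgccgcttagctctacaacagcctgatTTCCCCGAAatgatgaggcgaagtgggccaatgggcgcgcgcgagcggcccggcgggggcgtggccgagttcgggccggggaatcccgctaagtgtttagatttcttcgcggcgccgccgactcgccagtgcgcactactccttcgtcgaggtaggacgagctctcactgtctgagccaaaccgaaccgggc
Junb, chr19:40080876-40081175, plus strand: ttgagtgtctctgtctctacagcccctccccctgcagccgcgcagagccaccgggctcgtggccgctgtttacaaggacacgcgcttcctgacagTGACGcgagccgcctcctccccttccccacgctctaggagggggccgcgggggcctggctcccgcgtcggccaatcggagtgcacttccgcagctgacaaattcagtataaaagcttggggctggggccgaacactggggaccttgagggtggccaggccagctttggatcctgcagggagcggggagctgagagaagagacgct
Egr1, chr18:26736828-26737127, plus strand: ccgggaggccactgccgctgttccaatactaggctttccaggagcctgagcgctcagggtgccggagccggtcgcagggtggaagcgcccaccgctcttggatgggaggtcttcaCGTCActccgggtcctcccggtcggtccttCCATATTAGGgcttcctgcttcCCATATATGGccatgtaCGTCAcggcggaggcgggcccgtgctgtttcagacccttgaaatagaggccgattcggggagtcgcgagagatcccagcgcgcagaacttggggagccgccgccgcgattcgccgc
Nr4a1, chr7:134259888-134260187, plus strand: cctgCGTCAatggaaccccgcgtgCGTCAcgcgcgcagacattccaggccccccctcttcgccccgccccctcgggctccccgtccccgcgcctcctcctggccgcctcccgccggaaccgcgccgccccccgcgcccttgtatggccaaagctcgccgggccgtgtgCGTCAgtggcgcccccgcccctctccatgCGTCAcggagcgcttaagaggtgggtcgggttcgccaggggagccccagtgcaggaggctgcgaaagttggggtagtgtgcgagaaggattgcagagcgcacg

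The Irf1 window held 1 GAS match, at position -142 from the start, and none of the other motifs. Junb held 1 short CRE core, at -155. Egr1 held 2 CArG boxes, at -105 and -83, and 2 short CRE cores, at -135 and -66. Nr4a1 held 4 short CRE cores, at -246, -226, -82 and -53. No GAS match lay in the windows of Junb, Egr1 or Nr4a1. Fos, Jun and Atf3 were not examined, for lack of a promoter sequence. Among all 33469 promoter windows of this length, 8.87% held a GAS match, 1.64% a CArG box, 21.2% a short CRE core, 1.83% a full CRE and 7.33% an AP-1 site. A match describes these letters only and is not a measured binding site.

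None of the 16 immediate early probe sets passed the test for a change with IFN-gamma at 16 hours. At an adjusted p under 0.05 in limma, 0 of 16 were higher and 0 lower, beside 1.53% of all 8740 probe sets tested (0.927% higher and 0.606% lower). At an unadjusted p under 0.05 the count was also 0 of 16, against 10.5% of all probe sets. In each of the 16 the 3 IFN-gamma cultures overlapped the range of the 5 controls, while across the array 4.28% of probe sets had all IFN-gamma cultures above all controls and 3.40% had them all below. The median log2 fold change was -0.05 over the 16 probe sets and -0.02 over all tested, and 7 of the 16 were positive. All changes lay between -0.58 and 0.59, with adjusted p-values from 0.485 to 0.991.

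Levels are given as quantile-normalised log2(signal + 16), on which a signal of 0 is 4, so fold changes of dim probe sets are understated. Each p comes from limma fitted to all 8740 probe sets with Benjamini-Hochberg adjustment. Genes of the interferon response rose in the same cultures, 7 of 7 measured, of which Irf8 and Tap1 did not pass with culture number as a replicate block (adjusted p = 0.0939 and 0.0782). Irf1 by M34253_g_at lay at 8.97, 9.03 and 9.21 in IFN-gamma cultures 1, 2 and 3, against 5.53, 5.56, 5.89, 6.02 and 5.68 in control cultures 1, 2, 3, 5 and 6, a 10.1-fold difference (adjusted p = 1.08e-05), and its other probe set differed 5.82-fold. Cd74, the class II invariant chain gene, averaged 10.1 with IFN-gamma and 4.51 in controls by X14254cds_g_at (adjusted p = 5.51e-06). Its 4 probe sets differed 10.2-fold to 53.8-fold, sizes that depend on the pseudocount because the controls lay near the floor. Of 10 measured microglia or macrophage markers 2 rose, the lysozyme gene Lyz2 and the complement gene C1qb, and 0 fell. Of all 4736 genes, 0.887% were higher and 0.697% lower by the brightest probe set. The summed signal of the 10 markers was 7193 to 8247 with IFN-gamma and 2417 to 3700 in controls. Lyz2 alone gave 5125 to 6514 and 1272 to 2291 in the same groups. The other 9 markers together gave 1733 to 2081 with IFN-gamma and 1145 to 1442 in controls. Of these markers, Aif1 (8.24 with IFN-gamma and 7.81 in controls), Cd14 (8.28 and 8.63) and Cd53 (8.20 and 7.58) lay well above the floor without passing the test. Csf1r, at 4.88 and 4.73, and Cx3cr1, at 4.91 and 5.19, lay near the floor.

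The median deposited signal per culture ran from 14.5 to 20.9 with IFN-gamma and from 7.4 to 20.2 in controls (exact two-sided permutation p = 0.518, smallest possible 0.0179), with control culture 3 the dimmest. RNA integrity was read from array controls at both ends of a transcript, and neither the GAPDH ratio of 3' over 5' signal nor that of beta-actin differed beyond the spread (exact permutation p = 0.25 and 0.518, two-sided). Of 9 measured astrocyte markers 0 rose and 1 fell, beside 0.887% higher and 0.697% lower of all 4736 genes. The 1 that fell was the glutamine synthetase gene Glul (log2 fold change -1.66, adjusted p = 0.00301). The summed signal of the 9 was 257 to 324 with IFN-gamma and 588 to 983 in controls. That of the 8 without Glul was 114 to 160 with IFN-gamma and 126 to 244 in controls. Of these 8 the brightest was Slc1a3, at 6.04 with IFN-gamma and 6.17 in controls (adjusted p = 0.934). Gja1 (4.24 and 4.11) and Aqp4 (4.67 and 4.84) lay near the floor. None of 7 oligodendrocyte, 8 neuron or 10 fibroblast and vessel markers passed by the brightest probe set of the gene. The summed signal of the 10 fibroblast and vessel markers was 232 to 263 with IFN-gamma and 275 to 394 in controls. In this list 1 gene had a positive log2 fold change, and 1 dimmer probe set passed. For the oligodendrocyte and neuron lists the summed signals overlapped between the groups. In such bulk samples fewer cells of a type and less RNA per cell cannot be told apart. The part of these markers in the values below was not tested.

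**Figure D1:**
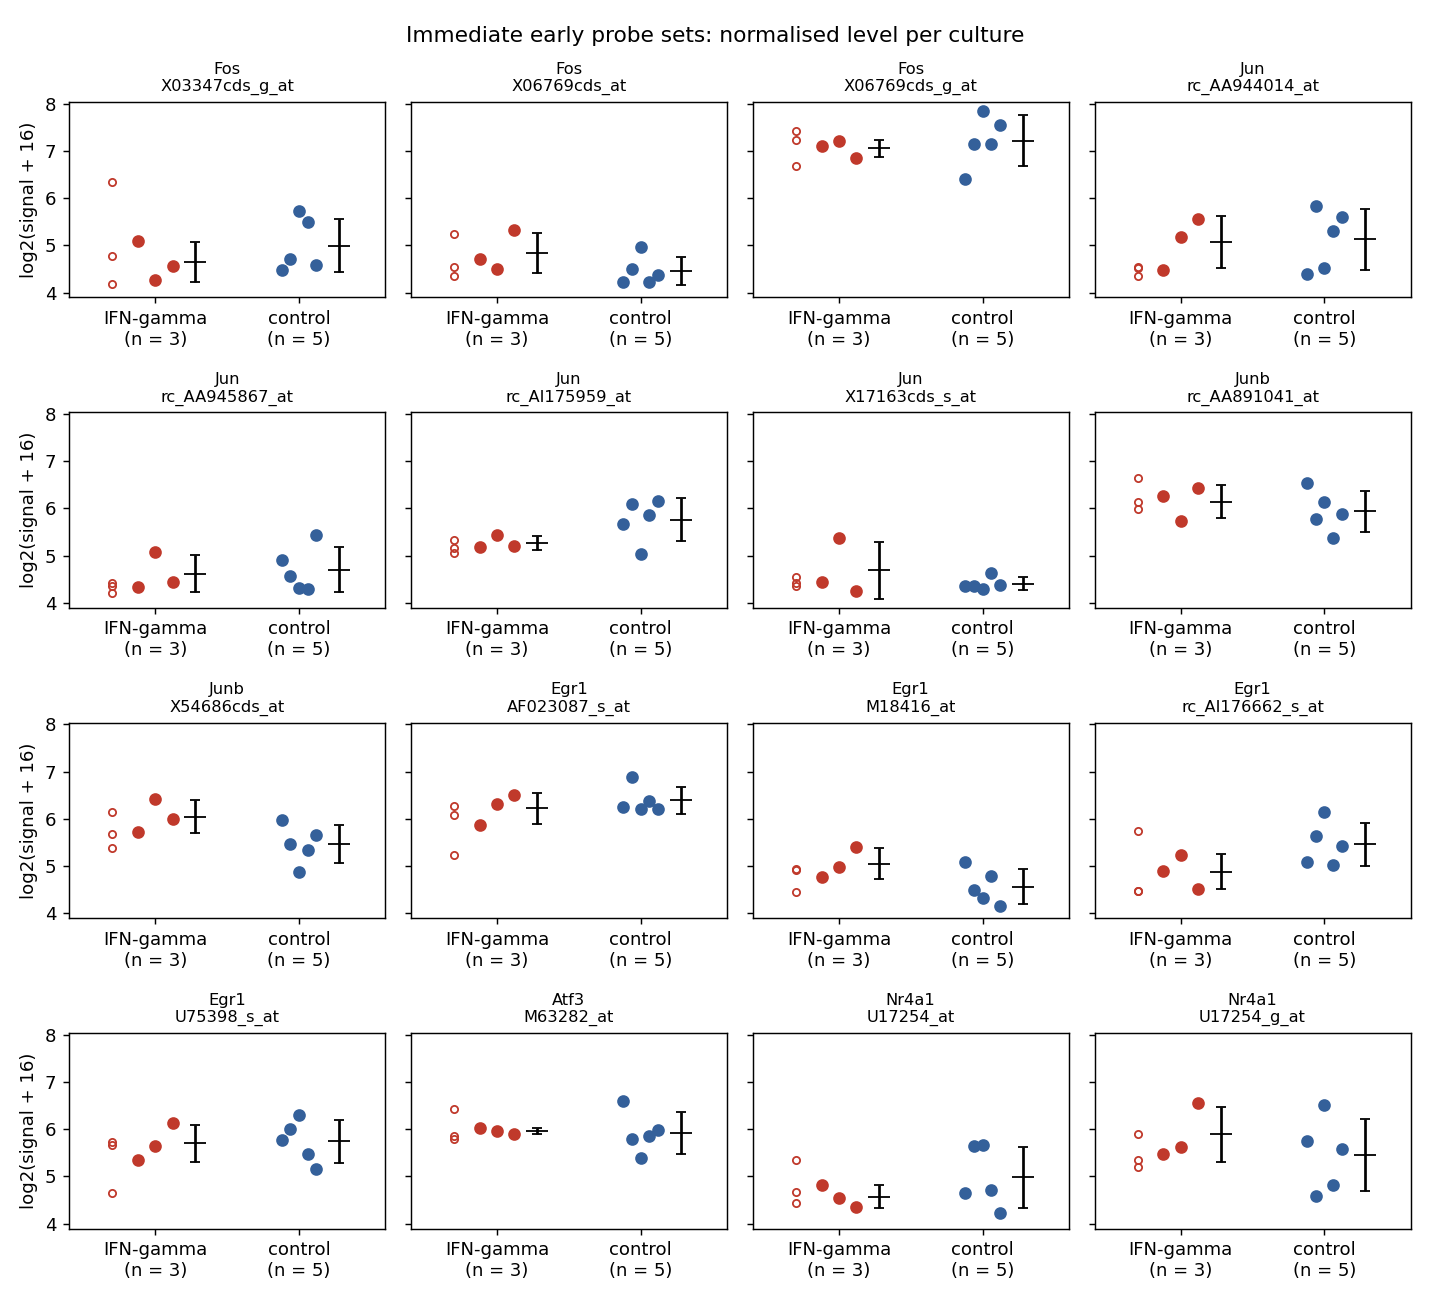
Normalised level, log2(signal + 16), of the 16 probe sets in each culture. Filled red points are the 3 IFN-gamma cultures, filled blue points the 5 control cultures, open red points the 3 technical arrays averaged into IFN-gamma culture 1, and black bars the mean ± SD over cultures. In every panel the red and blue filled points overlap in range.

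Fos encodes the founding partner of Jun in AP-1 and is a classic marker of recent stimulation. Its brightest probe set, X06769cds_g_at, had levels of 7.11, 7.20 and 6.85 in IFN-gamma cultures 1, 2 and 3, against 6.40, 7.15, 7.85, 7.14 and 7.55 in control cultures 1, 2, 3, 5 and 6. The IFN-gamma cultures lay inside the range of the controls, whose lowest and highest were cultures 1 and 3. The high level of control culture 3 rests on the normalisation, as its deposited signal of 65.1 was the lowest of the 10 arrays. The mean was 7.06 ± 0.182 (SD, n = 3) with IFN-gamma and 7.22 ± 0.543 (SD, n = 5) in controls, and the log2 fold change -0.16 ± 0.30 (SE), with an adjusted p of 0.94. The 95% interval of the fold ran from 0.559 to 1.43. It was the only Fos probe set with a deposited signal of at least 16 on all 10 arrays, from 96.9 to 168.2 with IFN-gamma and from 65.1 to 211.4 in controls. The others reached 16 on 3 and 2 arrays.

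Both dim Fos probe sets lay near the floor and pointed in opposite directions. X03347cds_g_at averaged 4.64 ± 0.426 (SD, n = 3) with IFN-gamma and 5.00 ± 0.568 (SD, n = 5) in controls (log2 fold change -0.35, adjusted p = 0.846). X06769cds_at averaged 4.84 ± 0.429 and 4.46 ± 0.304 in the same groups (0.38, adjusted p = 0.699). For X03347cds_g_at the technical arrays of IFN-gamma culture 1 alone spanned 6.35, 4.18 and 4.78, a wider range than that of the 5 controls.

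Jun encodes the AP-1 subunit that can pair with itself or with Fos. Its brightest probe set, rc_AI175959_at, had levels of 5.18, 5.45 and 5.20 in IFN-gamma cultures 1, 2 and 3, against 5.67, 6.09, 5.04, 5.86 and 6.17 in control cultures 1, 2, 3, 5 and 6. All 3 IFN-gamma cultures were below 4 of the 5 controls, and control culture 3, the dimmest array, lay below all of them. The means were 5.27 ± 0.15 (SD, n = 3) with IFN-gamma and 5.76 ± 0.453 (SD, n = 5) in controls, 1.41-fold lower with IFN-gamma (log2 fold change -0.49 ± 0.26 SE, adjusted p = 0.583). The value did not pass, and its 95% interval ran from 0.474 to 1.07 as a fold. Without control culture 3 the log2 fold change was -0.70, with an adjusted p of 0.168, the smallest of any immediate early probe set in any setting tried.

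The remaining 3 Jun probe sets were dimmer still. rc_AA944014_at averaged 5.07 ± 0.547 (SD, n = 3) with IFN-gamma and 5.13 ± 0.647 (SD, n = 5) in controls, and rc_AA945867_at 4.62 ± 0.398 and 4.70 ± 0.48 (adjusted p = 0.988 and 0.974). X17163cds_s_at averaged 4.69 ± 0.604 and 4.41 ± 0.133 (adjusted p = 0.827), where 1 culture set the difference. IFN-gamma culture 2 stood at 5.38, against 4.44 and 4.25 in IFN-gamma cultures 1 and 3. Without culture 2 the log2 fold change of X17163cds_s_at was -0.06 in place of 0.28.

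Junb encodes a Jun relative that joins AP-1 with weaker activating strength. Its 2 probe sets were both positive. X54686cds_at had levels of 5.73, 6.42 and 5.996 in IFN-gamma cultures 1, 2 and 3, against 5.98, 5.46, 4.88, 5.34 and 5.66 in control cultures 1, 2, 3, 5 and 6. Each IFN-gamma culture exceeded the control median, but control culture 1 lay above IFN-gamma culture 1. The means were 6.05 ± 0.349 (SD, n = 3) with IFN-gamma and 5.46 ± 0.407 (SD, n = 5) in controls, a 1.5-fold difference that did not pass (log2 fold change 0.59 ± 0.27 SE, unadjusted p = 0.0539, adjusted p = 0.485 by limma). This was the smallest p of the 16 and ranked 970 among the 8740 tested. The interval of the fold ran from 0.992 to 2.27.

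The brighter Junb probe set, rc_AA891041_at, showed less. It stood at 6.26, 5.74 and 6.43 in IFN-gamma cultures 1, 2 and 3 and at 6.53, 5.77, 6.14, 5.37 and 5.88 in control cultures 1, 2, 3, 5 and 6. IFN-gamma culture 2, the highest of the 3 by X54686cds_at, was the lowest of them here. The log2 fold change was 0.21 ± 0.28 (SE; adjusted p = 0.899), with an interval of 0.75 to 1.77 as a fold.

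Egr1 encodes a zinc finger factor that binds GC-rich promoter sites. Its brightest probe set, AF023087_s_at, stood at 5.86, 6.31 and 6.50 in IFN-gamma cultures 1, 2 and 3, against 6.26, 6.90, 6.22, 6.37 and 6.20 in control cultures 1, 2, 3, 5 and 6. The groups overlapped, with control culture 2 highest and IFN-gamma culture 1 lowest. The means were 6.22 ± 0.327 (SD, n = 3) with IFN-gamma and 6.39 ± 0.291 (SD, n = 5) in controls (log2 fold change -0.16 ± 0.22 SE, adjusted p = 0.901). Its interval of 0.629 to 1.27 as a fold was the narrowest of the 16. The low value of IFN-gamma culture 1 came from its arrays 1a, 1b and 1c at 6.08, 6.27 and 5.24.

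The other Egr1 probe sets did not give 1 direction. rc_AI176662_s_at lay at 4.90, 5.24 and 4.51 in IFN-gamma cultures 1, 2 and 3, against 5.09, 5.63, 6.15, 5.03 and 5.43 in control cultures 1, 2, 3, 5 and 6. IFN-gamma culture 2 overlapped the controls while cultures 1 and 3 lay below them, and the log2 fold change was -0.58 ± 0.28 (SE, adjusted p = 0.532). The value of IFN-gamma culture 1 averaged its arrays 1a, 1b and 1c at 4.48, 4.48 and 5.74, of which 1c lay within the range of the controls. M18416_at lay at 4.77, 4.97 and 5.41 in IFN-gamma cultures 1, 2 and 3, against 5.10, 4.48, 4.32, 4.79 and 4.15 in the same order of controls. Here the IFN-gamma cultures stood on the higher side (log2 fold change 0.49 ± 0.25 SE, adjusted p = 0.568), close to the floor. U75398_s_at averaged 5.71 ± 0.391 (SD, n = 3) with IFN-gamma and 5.74 ± 0.452 (SD, n = 5) in controls (adjusted p = 0.991). The suffix _s_at marks a probe set that may also bind related transcripts.

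Atf3 encodes a stress-induced bZIP factor that acts mostly as a repressor and dampens inflammatory genes in macrophages. Its single probe set, M63282_at, stood at 6.03, 5.96 and 5.90 in IFN-gamma cultures 1, 2 and 3, against 6.59, 5.78, 5.38, 5.86 and 5.99 in control cultures 1, 2, 3, 5 and 6. The 3 IFN-gamma cultures fell in the middle of the controls, with control cultures 1 and 3 at the ends. The means were 5.96 ± 0.0624 (SD, n = 3) with IFN-gamma and 5.92 ± 0.439 (SD, n = 5) in controls, which differed by 0.04 ± 0.25 on the log2 scale (SE; adjusted p = 0.986), with an interval of 0.695 to 1.52 as a fold. The technical arrays behind IFN-gamma culture 1 spread more (SD 0.347) than the 3 IFN-gamma cultures did.

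Nr4a1 encodes the nuclear receptor Nur77, an early gene of stimulated macrophages and T cells. U17254_g_at stood at 5.48, 5.63 and 6.56 in IFN-gamma cultures 1, 2 and 3, against 5.76, 4.59, 6.51, 4.82 and 5.59 in control cultures 1, 2, 3, 5 and 6. The controls spanned nearly the whole range and held the lowest value. The log2 fold change was 0.44 ± 0.44 (SE; adjusted p = 0.85), and its interval of 0.68 to 2.69 as a fold was the widest of the 16. The dimmer U17254_at averaged 4.57 ± 0.234 (SD, n = 3) with IFN-gamma and 4.98 ± 0.647 (SD, n = 5) in controls, the opposite sign (log2 fold change -0.41, adjusted p = 0.812).

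**Figure D2:**
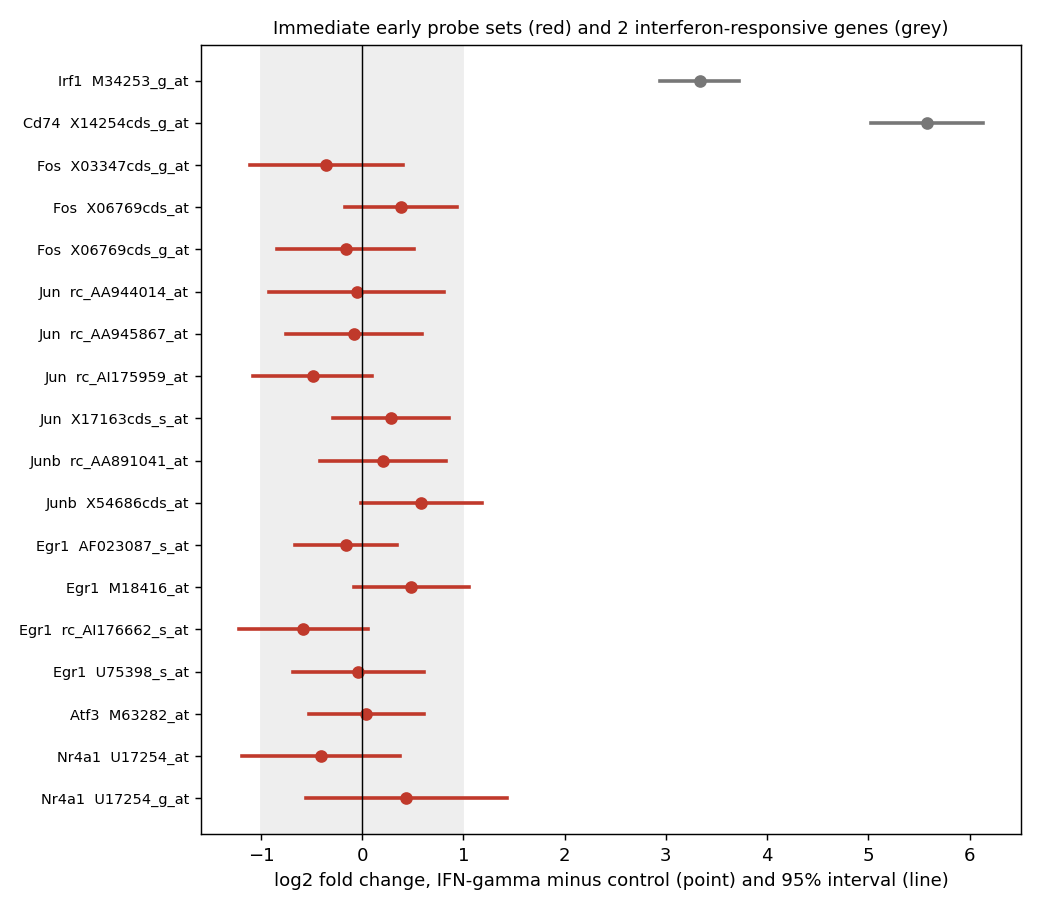
Log2 fold change, IFN-gamma minus control, with its 95% interval for the 16 immediate early probe sets (red) and for 1 probe set each of Irf1 and Cd74 (grey), with the span of 2-fold either way shaded. Every red interval crosses 0 and 9 of the 16 lie wholly within 2-fold, while Irf1 and Cd74 lie at 3.33 and 5.58.

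The 95% intervals of 9 of the 16 probe sets lay wholly within 2-fold in both directions, and the distance from the estimate to the end of its interval ran from 1.42-fold to 1.99-fold with a median of 1.55-fold. No interval reached beyond 0.429 on the low side or 2.69 on the high side. These bounds are on the log2(signal + 16) scale, and 6 of the 16 probe sets had a mean level under 5, where a change is compressed most. The other 10 lay at or above 5, as did 47.8% of all tested probe sets.

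The SD over the 3 technical arrays of IFN-gamma culture 1 had a median of 0.374 over the 16 probe sets, and the SD over the 5 control cultures 0.453. In 5 of the 16, 3 of Egr1 and 2 of Fos, the technical SD was the larger. For the 4 Jun probe sets it was small, from 0.0934 to 0.137, against 0.133 to 0.647 over the controls.

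**Figure D3:**
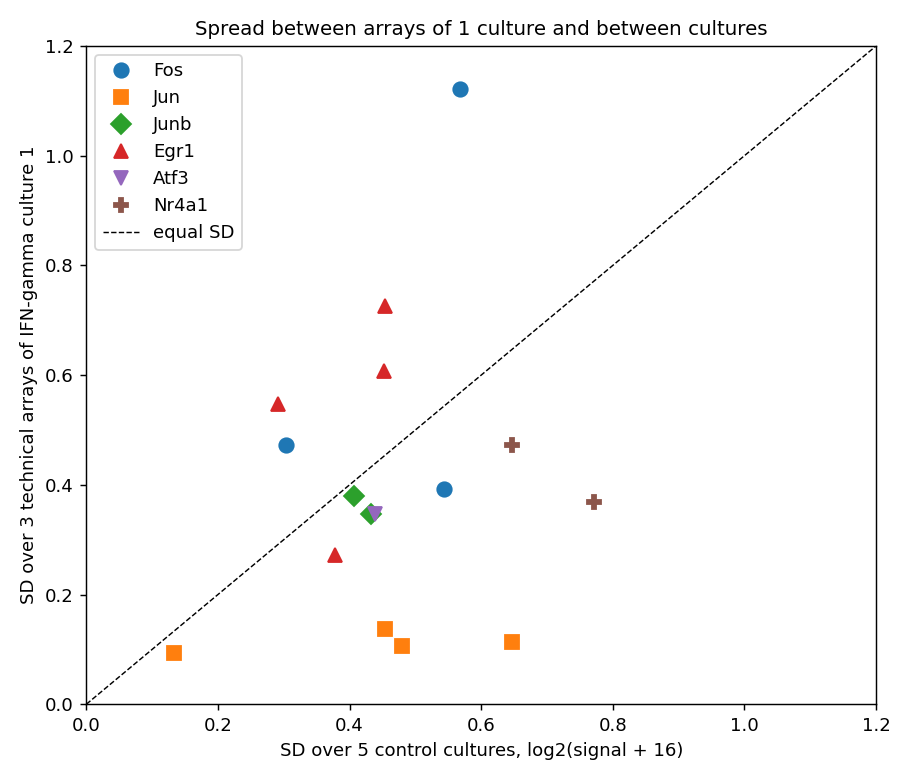
SD of the normalised level over the 3 technical arrays of IFN-gamma culture 1 (vertical axis) against the SD over the 5 control cultures (horizontal axis), 1 point per probe set, with the dashed line at equal SD. The 5 points above the line are 3 of Egr1 and 2 of Fos, and all Jun points lie low on the vertical axis.

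Probe sets of the same gene did not follow each other closely. Over the 17 pairs of probe sets within a gene, Pearson's r of the levels in the 8 cultures ran from -0.79 (M18416_at and rc_AI176662_s_at of Egr1) to 0.60 (rc_AA944014_at and rc_AI175959_at of Jun), given as a description of points that share arrays and normalisation. Between the brightest probe sets of different genes r ran from -0.84 (Fos and Atf3) to 0.68 (Junb and Nr4a1). Among 957 other genes with a mean level of at least 6, the most alike in pattern over the 8 cultures were Syngr1, Slc18a3 and Zp2 for Fos (r = 0.95, 0.93 and 0.91), Cox4i1, Rheb and Akr1b1 for Junb (0.88, 0.84 and 0.81) and Galm, Taf6 and Rpl3 for Egr1 (0.89, 0.89 and 0.88). These are the highest of many correlations over 8 points and carry no test.

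The genes of the wider early response and of its signalling were read the same way, by their mRNA alone. The activity of the kinases and factors was not measured. By the brightest probe set of each gene, 0 of 100 measured genes in 5 lists of early response and signalling genes were higher and 5 were lower, beside 0.887% higher and 0.697% lower of all 4736 genes. The median log2 fold change was -0.10 over these 100 genes and -0.02 over all. The lists were drawn up with earlier results of these data known. All 5 lower genes lost their call in some other setting.

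Of 16 measured bZIP relatives of AP-1, 0 rose and 0 fell (median -0.06). Cebpb, a bZIP factor gene of macrophage activation, lay just short of the threshold. It stood at 7.81, 7.95 and 7.55 in IFN-gamma cultures 1, 2 and 3, against 6.98, 6.67, 6.13, 6.65 and 6.97 in control cultures 1, 2, 3, 5 and 6, so that all IFN-gamma cultures exceeded all controls. The log2 fold change was 1.09 ± 0.22 (SE; adjusted p = 0.0501), and it passed in 8 of 20 other settings (adjusted p from 0.0095 to 0.442). Its dimmer probe set, S77528cds_s_at, had 0.05 (adjusted p = 0.992). Nfe2l2, the oxidative stress factor NRF2, had 0.61 (adjusted p = 0.297) and Jund, the third Jun gene, 0.33 (adjusted p = 0.591). Among 17 other early response transcription factors 0 rose and 0 fell (median -0.17). Id3, an inhibitor of helix-loop-helix factors, had -0.65 (adjusted p = 0.484), and -0.06 by the dimmer AF000942_at (adjusted p = 0.986). The zinc finger factor gene Klf6 had 0.81 (adjusted p = 0.492) and Egr3, a relative of Egr1, -0.61 (adjusted p = 0.667). Hes1, a Notch target, named after its values were seen, fell by 0.91 by a dimmer probe set, D13417_g_at (adjusted p = 0.0473), a call lost in 17 of 20 other settings, and had -0.50 by the brighter D13417_at (adjusted p = 0.686).

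Of 26 early response genes that encode other proteins 0 rose and 1 fell (median -0.04), beside 0.887% higher and 0.697% lower of all 4736 genes. Rgs1, a regulator of G protein signalling, stood at 4.32, 4.10 and 4.08 in IFN-gamma cultures 1, 2 and 3, against 5.37, 5.33, 5.59, 5.14 and 4.72 in control cultures 1, 2, 3, 5 and 6. All IFN-gamma cultures lay below all controls and close to the floor, with a log2 fold change of -1.07 on this scale and an adjusted p of 0.0459. The size depends on the pseudocount and scaling, from -0.39 to -3.03 over the other settings. In 14 of 19 other settings it did not pass, among them the omission of IFN-gamma culture 1, 2 or 3 or of control culture 1, 2, 3 or 5 (adjusted p from 0.0632 to 0.225). The early gene Ier3 had -0.87 by X96437mRNA_g_at (adjusted p = 0.144) and the opposite sign, 0.31, by the dimmer X96437mRNA_at (adjusted p = 0.868), and the MAP kinase phosphatase gene Dusp4 had 0.38 (adjusted p = 0.575). In the upstream MAP kinase, SRF and CREB list 0 of 20 genes rose or fell (median -0.10). The kinase genes Mapkapk2, Map2k5 and Camk2d had 0.82, -0.75 and -0.62 (adjusted p = 0.176, 0.178 and 0.198). The dimmer Map2k5 probe set, U37462_s_at, had -0.09 (adjusted p = 0.976). The dimmer Camk2d probe sets ran from -0.69 to 0.22, and none passed.

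Of 23 genes with textbook AP-1 or EGR promoter sites 0 rose and 4 fell (median -0.26). Among all 4736 genes, 0.887% were higher and 0.697% lower. The promoter sites of the 23 genes were not checked here. On the log2 scale the osteopontin gene Spp1 changed by -2.16 (adjusted p = 0.00921), the fibronectin gene Fn1 -1.81 (adjusted p = 0.00921), the plasminogen activator gene Plau -1.31 (adjusted p = 0.013) and the chemokine gene Ccl2 -1.48 (adjusted p = 0.0473). Fn1 by X05834_at was close to the floor with IFN-gamma, at 4.86, 4.22 and 4.23 in cultures 1, 2 and 3, and its change ran from -0.85 to -3.43 over the other settings. The 4 dimmer Fn1 probe sets had changes of -0.19 to 0.08, and none passed. Each of the 4 genes lost its call in 4 to 15 of 20 other settings, in all 4 cases with no scaling between arrays and without IFN-gamma culture 3, where the adjusted p was 0.0704 for Spp1, 0.0707 for Fn1, 0.0704 for Plau and 0.204 for Ccl2. Without IFN-gamma culture 2 it was 0.0558 for Spp1, 0.0651 for Fn1 and 0.247 for Ccl2, and without IFN-gamma culture 1 it was 0.0818 for Plau and 0.0951 for Ccl2. Ccl2 also failed without control culture 1, 2, 5 or 6 (adjusted p from 0.0715 to 0.115). These values are for its brightest probe set, and the dimmer X17053cds_s_at had -1.46 (adjusted p = 0.0335). Icam1, an adhesion gene singled out with its values in view, rose by D00913_at (log2 fold change 1.13, adjusted p = 0.0459, lost in 12 of 20 other settings) but not by its brightest probe set (1.35, adjusted p = 0.0819). No test compared this list with the 16 immediate early probe sets.

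**Figure D4:**
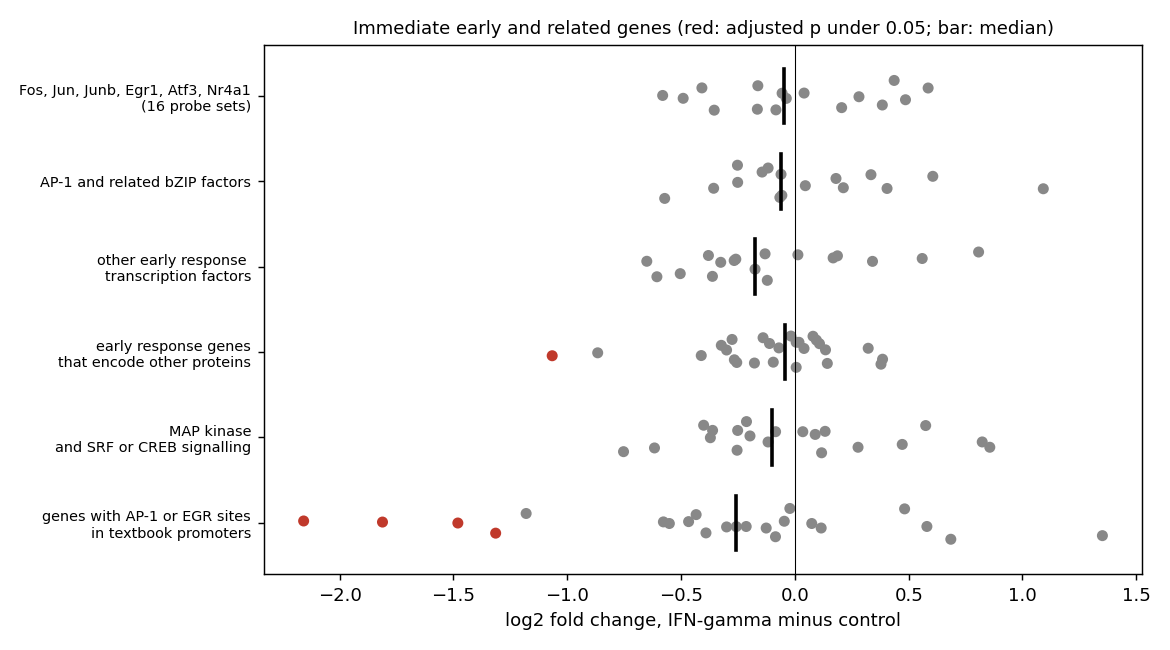
Log2 fold change, IFN-gamma minus control, of the 16 immediate early probe sets (top) and of the genes of 5 related lists by their brightest probe set, 1 point per probe set, red where the adjusted p was under 0.05, with a bar at the median. The top group holds no red point, and red points appear in 2 lists, 1 below -1 among early response genes that encode other proteins and 4 among genes with AP-1 or EGR sites.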

How the data were processed

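Total RNA was labelled with biotin and hybridised to 10 Affymetrix rat expression arrays, per the labels. The authors deposited 1 linear signal intensity per probe set and array. MAS5 and GCRMA appear in the submitters' processing notes without a role or version, and no genome build is given there. No detection calls were used, and the number of arrays limits the precision. Array medians differed, so log2(signal + 16) was quantile normalised over all 10 arrays, and the 3 technical arrays of IFN-gamma culture 1 were averaged. The 59 array controls were then left out, and 8740 probe sets entered the fit of group alone (lmFit, eBayes, two-sided, Benjamini-Hochberg, limma 3.58.1, R 4.3.3). The fit was first checked on simulated independent noise, with changes added only above the median level. That check did not cover array scaling or changes in dim probe sets.

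Of the tested probe sets 7006 had 1 symbol, 308 several and 1426 none, and 0 symbols changed through Entrez identifiers in the RefSeq table of GRCr8. The members, lists, processing and rules were chosen with earlier results of these data known. Named genes were every member probe set, all genes past the threshold in each list or its 3 smallest adjusted p-values, Irf1 and Cd74, and the 3 genes most alike in pattern. Cultures with the same number did not deviate together (r = -0.0266, 0.00383 and -0.0146 for numbers 1, 2 and 3), and no label ties a number to one brain or day, so no block was used. In all 20 alternatives were run.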

Additional observations from a re-analysis of the deposited data

Results flagged for a closer look

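Among the 5 control cultures, a single culture stood apart from the other 4 by Dixon's test at 2 of the 16 immediate early probe sets, and such a flag arises by chance in about 1 of 20 groups tested. Control culture 5 was high for Jun by X17163cds_s_at, at 4.63 against 4.38 for the next culture, both close to the floor of the scale. Control culture 2 was high for Egr1 by AF023087_s_at, at 6.90 against 6.37 for the next. Without control culture 2 the Egr1 probe set stayed short of the threshold.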

How the results depend on the processing

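No immediate early probe set passed under any alternative, with all 16 tested in 19 of them and 10 in the one that kept mean levels of at least 5, and the smallest adjusted p was 0.168. Of 314 values under other settings 286 kept their direction and 28, at 9 probe sets, took the opposite sign with neither value past the threshold. The cause was not tested. With no scaling between arrays, which moved the median of all probe sets from -0.02 to 0.0985, the log2 fold change was 0.40 for Fos X06769cds_g_at, 0.11 for Jun rc_AA944014_at, 0.21 for Egr1 AF023087_s_at and 0.28 for Egr1 U75398_s_at. With array medians subtracted it was 0.27, 0.0851 and 0.16 for Fos X06769cds_g_at, Egr1 AF023087_s_at and Egr1 U75398_s_at. Atf3 stood at -0.0489 with the trimmed mean, -0.0133 with array 1a alone and -0.0377 with array 1c alone for IFN-gamma culture 1. Fos X03347cds_g_at was at 0.0589 with array 1a alone, and Egr1 U75398_s_at at 0.0692 with 1b and 0.0881 with 1c alone. With the culture number as a replicate block Jun rc_AA944014_at was at 0.16, Jun rc_AA945867_at at 0.0225 and Junb rc_AA891041_at at -0.0026. Leaving out 1 culture at a time gave ranges of -0.0984 to 0.21 for Atf3, -0.29 to 0.0181 for Egr1 AF023087_s_at, -0.24 to 0.14 for Egr1 U75398_s_at, -0.0621 to 0.49 for Jun X17163cds_s_at, -0.29 to 0.24 for Jun rc_AA944014_at and -0.31 to 0.0985 for Jun rc_AA945867_at.

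The count over all probe sets was 134, and 39 with no scaling, 67 with a pseudocount of 1, 22 with the replicate block and 68 to 153 with 1 culture left out. Higher calls were 60.4% of calls, 97.4% with no scaling and 78.7% with array medians. The number of list genes past the threshold was 5, and 0 with no scaling, 3 with array medians and 3 with a pseudocount of 1. It was 0 with the replicate block and 0 to 5 with 1 culture left out. With the random culture block it was 7, which kept all 5, and with the intensity trend 6. Among the 68 list genes with mean levels of at least 5 it was 6. Of the original 5 genes, 2 kept their call with array medians, 3 with a pseudocount of 1 and 0 to 4 with 1 culture left out, the other calls being Cebpb or Icam1. The replicate block ended the calls of these 5 genes and those of Irf8 and Tap1 in the interferon check (adjusted p = 0.0939 and 0.0782), and changed no call of an immediate early probe set. Signal over background is a further limit, as 6 of the 16 probe sets lay under a mean level of 5.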
